A study of Capra hircus with 90 samples.

Results

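Gene expression in the nucleus of the solitary tract (NTS) of goats was compared between 24 h and 3 h of breathing 6% CO2. The libraries were taken by their titles, 6 labelled NTS_24hr_CO2 and 6 labelled NTS_3hr_CO2, which makes 12 of the 90 libraries in the series. All goats were outbred females of at least 2 years, of breeds such as Alpine, Saanen and Toggenburg, and the labels give no transgene or other agent. Each group held 6 different goats. Another group of 6 goats spent 24 h in room air and is the baseline of both CO2 groups. No group breathed room air for 3 h, so the length of CO2 exposure and the hours spent under study conditions cannot be told apart. The tissue was a punch of about 1.8 mm diameter, taken from frozen brainstem between 0 and 2 mm rostral of the obex, so a library can hold tissue around the nucleus. RNA of all 3 groups was extracted and sequenced in the first batch of the series.

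The NTS lies in the dorsal medulla and receives the nerve fibres of the carotid chemoreceptors, the arterial baroreceptors and the stretch receptors of the lung. It passes these signals to the neurons that set breathing, and it holds neurons that are themselves sensitive to CO2. Breathing CO2 widens the small arteries of the brain and raises blood flow. In the cells lining the vessels, genes such as NOS3 and THBD respond to flow.

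Gene symbols could be given to 238 genes, all of them genes that the authors had selected in comparisons of CO2 with room air. Of these, 232 were tested here. A total of 110 of the tested symbols came from the authors' NTS table for 24 h, which shares the 24 h libraries, and 9 from their NTS table for 3 h, which shares the 3 h libraries. The direction of a gene with a symbol is therefore not independent evidence. None of 10 general neuronal genes or 11 astrocyte genes had a linked symbol, and the labelled tissue was not checked against defining markers. In bulk tissue, fewer cells of a type and less RNA per cell cannot be told apart.

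Library depth ranged from 12.75 M to 35.7 M counted reads after 24 h and from 9.64 M to 24.98 M after 3 h. The first principal component held 28.9% of the variance of the 18 NTS libraries of the batch and set 5 of them apart. Its scores were 15.1 in 24 h replicate 5, 71.4 and 70.2 in 3 h replicates 5 and 6, and 51.6 and 40.6 in room-air replicates 5 and 6, while all 13 others lay below 0. Each of these 5 libraries also had more PRPH than any other library. PRPH encodes the filament protein peripherin of peripheral and motor neurons, and its level in CPM (counts scaled to library size) was 35.8 in 24 h replicate 5, and 754.7 and 1111 in 3 h replicates 5 and 6. In the other libraries PRPH lay between 1.93 and 4.96 CPM after 24 h and between 2.38 and 4.04 CPM after 3 h. More of the libraries that stand apart were in the 3 h group than in the 24 h group, so the counts of calls and the leading genes are given with and without all 5 of them, and so are other fold changes that moved by over 1.5 times without them.

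**Figure D1:**
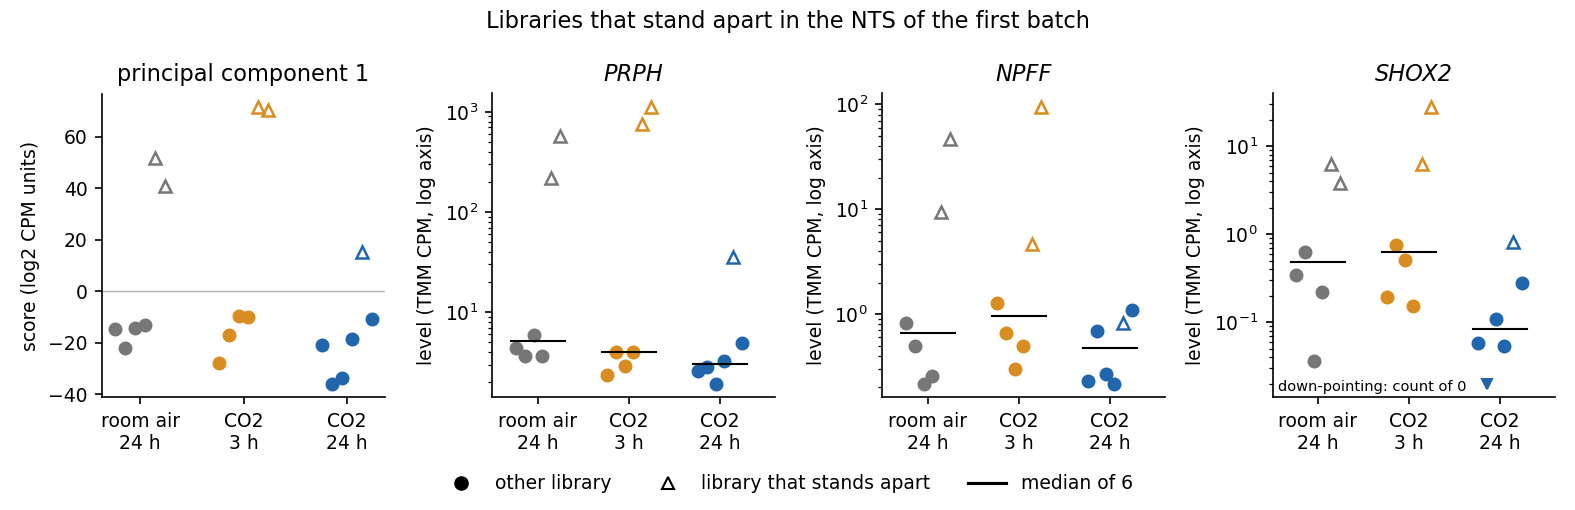
The 18 NTS libraries of the first batch by group, with the score on principal component 1 (left, in log2 CPM units) and the levels of PRPH, NPFF and SHOX2 in CPM on a log axis. Open triangles mark the 5 libraries that stand apart and black lines the median of 6; the marked 24 h library lies at a score of 15.1 and both marked 3 h libraries at 70.2 or above.

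With all libraries, no gene differed between 24 h and 3 h of CO2 past the threshold, but the gene nearest to it was VEGFC, the growth factor of lymphatic and venous endothelium, which was lower at 24 h. edgeR's quasi-likelihood test called 0 of 15605 genes (0%) at a Benjamini-Hochberg adjusted p of 0.05. At an unadjusted p of 0.05 it counted 1776 genes (11.4%), of which 764 were higher at 24 h (4.9%) and 1012 lower (6.49%). On the same libraries DESeq2 called 15 genes, 8 higher and 7 lower, and limma voom with quality weights called 1, which was VEGFC. Every 24 h library lay below every 3 h library in 34 genes (0.218%) and above in 44 genes (0.282%). The median SE of a log2 fold change was 0.18.

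Without the 5 libraries that stand apart, 2 of 15620 genes (0.0128%) passed 0.05 by edgeR, and both fell at 24 h. They were THBD, which encodes thrombomodulin, the receptor on endothelium that turns thrombin to an anticoagulant role, and MAP1LC3A, an LC3 protein of the autophagosome membrane. That fit kept 5 libraries after 24 h, 4 after 3 h and 4 in room air, and 1628 genes (10.4%) had an unadjusted p below 0.05. The calls were at the edge of the threshold. DESeq2 called 59 genes on the same 13 libraries (28 higher and 31 lower), whereas voom called 0, with 1156 at an unadjusted p below 0.05. When each of the 9 remaining CO2 libraries was left out in turn, the count of calls ran from 0 to 8, with 3 without 3 h replicate 1, 8 without 3 h replicate 4, and 0 without any of the other 7. THBD was called in 2 of these 9 fits and MAP1LC3A in 1.

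**Figure D2:**
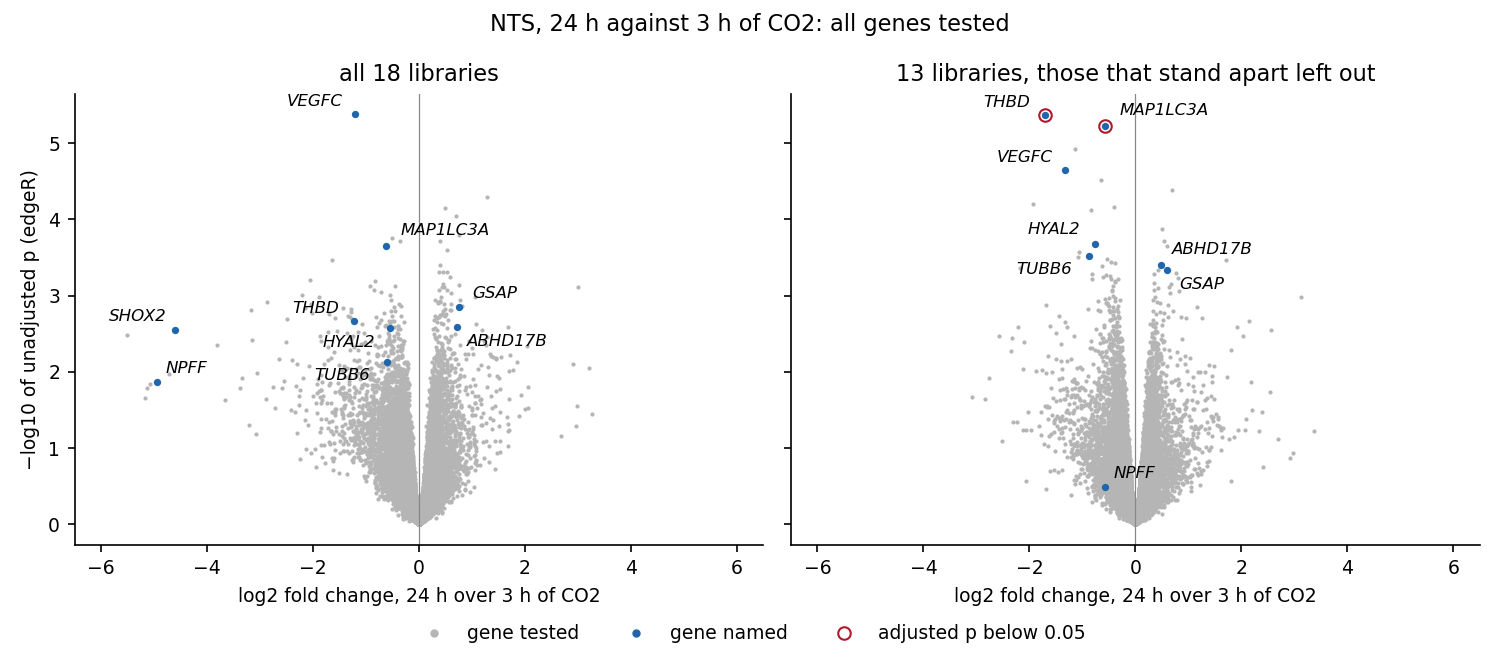
Each gene tested by its log2 fold change, 24 h over 3 h of CO2, and the −log10 of its unadjusted p from edgeR, with all 18 libraries (left) and with the 13 that remain when those that stand apart are left out (right). Red rings mark an adjusted p below 0.05: there are 0 on the left and 2 on the right, THBD and MAP1LC3A, while SHOX2 and NPFF lie far from 0 only on the left and SHOX2 was filtered out on the right.

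Among genes of vessels, VEGFC separated the groups in full. It had 3.80, 4.23 and 5.52 CPM (lowest, median and highest) after 24 h, against 7.68, 10.1 and 13.9 CPM after 3 h. No 24 h library reached the lowest 3 h library, and the room-air libraries averaged 4.73 ± 1.197 CPM (SD, n = 6), near the 24 h level. In edgeR the log2 fold change was −1.21 (SE 0.19, adjusted p = 0.0649), and −1.33 (SE 0.23, adjusted p = 0.0888) without the libraries that stand apart. VEGFC passed 0.05 when 3 h replicate 1 was left out (adjusted p = 0.0372). DESeq2 called VEGFC with all libraries (adjusted p = 2.31e-05) and without those that stand apart (adjusted p = 0.000333). Of 15 other settings of the main comparison, DESeq2 among them, 3 called VEGFC, with adjusted p-values up to 0.208. In the authors' deposited table VEGFC was 1.13 higher on the log2 scale at 3 h than in room air, a comparison that shares the 3 h libraries.

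THBD showed a difference of the same order with more spread. It had 2.23, 6.17 and 10.9 CPM after 24 h, against 5.64, 15.8 and 25.1 CPM after 3 h. The overlap came from libraries that stand apart: 24 h replicate 5 was the highest of its group, and 3 h replicate 6 the lowest of its group. The remaining libraries lay between 2.23 and 6.93 CPM after 24 h and between 15.7 and 25.1 CPM after 3 h, with no overlap, and room air averaged 4.94 ± 2.19 CPM (SD, n = 6). The log2 fold change of THBD was −1.23 (SE 0.35, adjusted p = 0.386) with all libraries and −1.71 (SE 0.25, adjusted p = 0.0461) without those that stand apart.

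NOS3, the nitric oxide synthase of endothelium, and ACVRL1, its receptor for bone morphogenetic protein 9, complete the linked members of the flow-responsive endothelial list, 3 of 16 genes. All 3 were lower at 24 h, with a median log2 fold change of −0.45, beside −0.01 over all genes tested, of which 51.1% were lower. All 3 came from the authors' NTS table for 3 h, where they were higher at 3 h than in room air. Since that table shares the 3 h libraries, it fixes part of the direction. Of its 9 tested symbols 8 were lower at 24 h. Over all 232 tested symbols 188 were lower, with a median of −0.28. Without the libraries that stand apart the median of the 3 genes was −0.81, beside 51.5% of all genes and 191 of 229 symbols lower. In that fit 1 of the 3, THBD, passed the test. NOS3 had 14.04, 23.3 and 42.1 CPM after 24 h, against 21.5, 32.7 and 49.6 CPM after 3 h. Its groups overlapped through 24 h replicate 5, the highest of the 24 h group, and 3 h replicate 6, the lowest of the 3 h group. For NOS3 the log2 fold change was −0.45 (SE 0.22, adjusted p = 0.438), and −0.81 (SE 0.19, adjusted p = 0.257) with those libraries left out. ACVRL1 had a median of 17.2 CPM after 24 h and 21.96 CPM after 3 h, and its log2 fold change was −0.39 (SE 0.16, adjusted p = 0.400). ACVRL1 was named after its values were seen.

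A further 3 genes that earlier results of these data had shown to be higher at 3 h than in room air were also lower at 24 h than at 3 h. They are HYAL2, a hyaluronidase of the cell surface, TUBB6, a beta-tubulin, and RHBDF1, an inactive rhomboid protein that guides the sheddase ADAM17. Since that choice rested on the same 3 h libraries, it fixes part of the direction. HYAL2 had 10.3, 14.3 and 20.1 CPM after 24 h, against 16.3, 21.7 and 25.4 CPM after 3 h, and 5 of 6 24 h libraries lay below every 3 h library. Its log2 fold change was −0.54 (SE 0.16, adjusted p = 0.388), and −0.76 (SE 0.16, adjusted p = 0.257) without the libraries that stand apart. TUBB6 had 22.6, 31.2 and 41.5 CPM after 24 h, against 28.9, 50.02 and 70.9 CPM after 3 h, and its log2 fold change was −0.60 (SE 0.20, adjusted p = 0.390) or −0.88 (SE 0.19, adjusted p = 0.257). RHBDF1 had 13.97, 18.3 and 18.8 CPM after 24 h, against 17.6, 23.2 and 28.8 CPM after 3 h, with a log2 fold change of −0.38 (SE 0.14, adjusted p = 0.390). With the libraries that stand apart left out, the 24 h and 3 h groups did not overlap for VEGFC, THBD, HYAL2, TUBB6, NOS3 or RHBDF1. In that fit 223 of 15620 genes (1.43%) had every 24 h library below every 3 h library, and 208 (1.33%) had every one above. Mean levels of HYAL2, TUBB6, NOS3 and RHBDF1 after 24 h, at 14.7, 32.4, 24.9 and 17.7 CPM, still lay above their room-air means of 11.7, 24.5, 17.8 and 15.3 CPM.

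**Figure D3:**
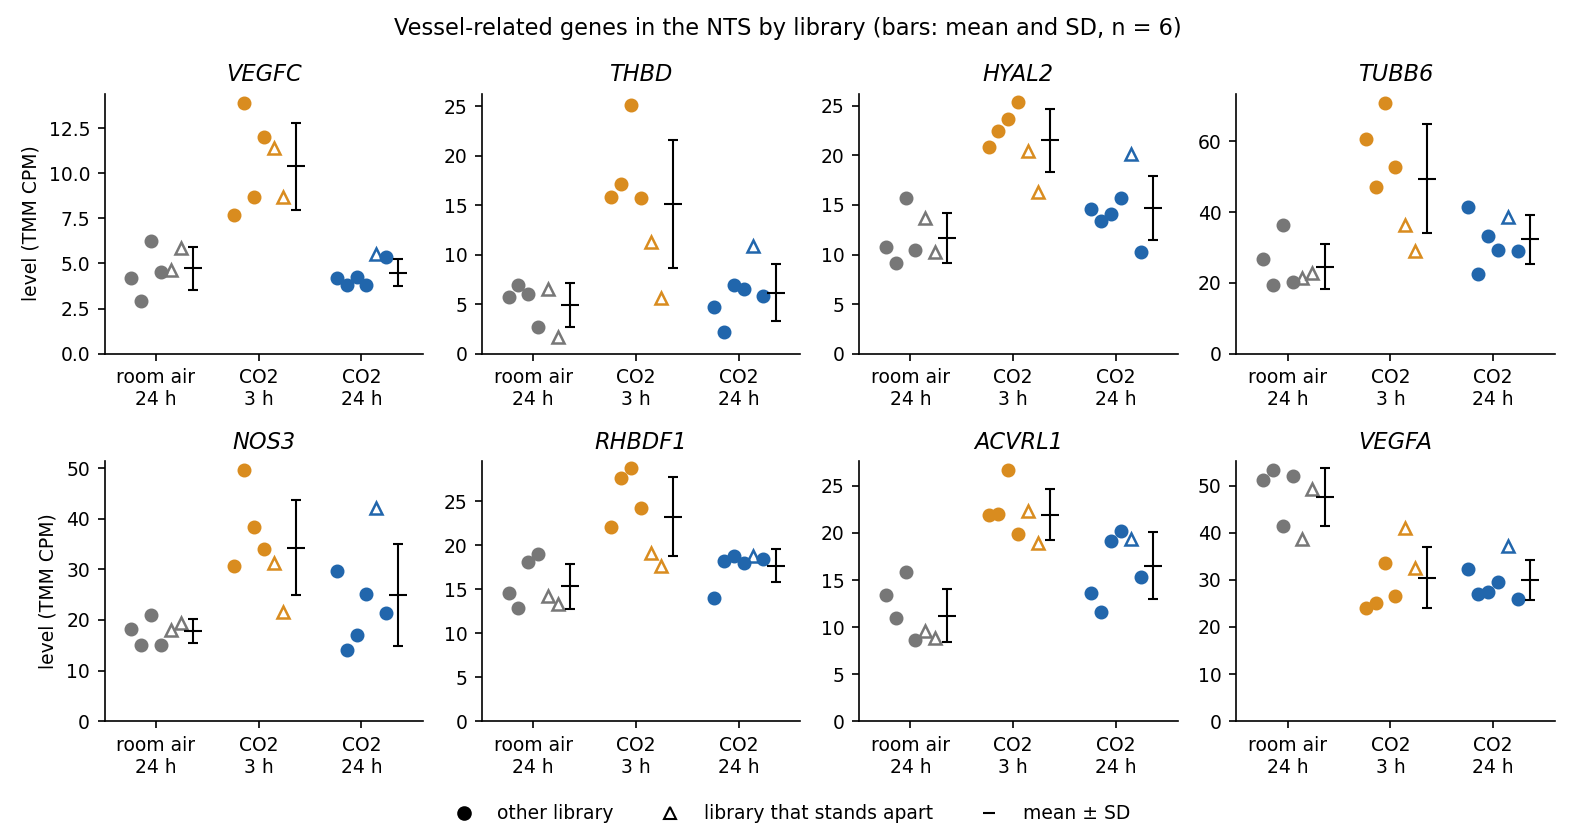
Levels of 8 genes in CPM in each NTS library, by group, with the mean and SD of 6 beside each group and open triangles for the libraries that stand apart. HYAL2, TUBB6 and RHBDF1 were chosen for their rise at 3 h and not as genes of vessels. VEGFC lies between 3.80 and 5.52 CPM after 24 h and between 7.68 and 13.9 CPM after 3 h, while VEGFA lies at like levels after both exposures.

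The other linked members of the hypoxia-inducible factor and VEGF list, 4 of 23 with VEGFC, gave no called difference, and the list's median log2 fold change was −0.17. VEGFA, the main growth factor of blood vessels, named after its values were seen, averaged 29.9 ± 4.28 CPM after 24 h and 30.4 ± 6.47 CPM after 3 h, below the 47.6 ± 6.13 CPM of room air (SD, n = 6 each). Its log2 fold change between 24 h and 3 h was −0.02 (95% confidence interval −0.29 to 0.26). The sign turned to 0.08 without the libraries that stand apart. VEGFB, a related ligand, had a log2 fold change of −0.23 (SE 0.22), and EGLN1, the oxygen-sensing prolyl hydroxylase upstream of hypoxia-inducible factors, −0.12 (SE 0.19). Both signs rested on 3 h replicate 2, without which the values were 0.07 and 0.02. Without the libraries that stand apart they were −0.36 and −0.04.

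Markers of vessel identity did not move one way. FOXQ1, a forkhead factor of brain endothelium, and MEOX2, a homeobox factor of vessels, had medians of 0.517 and 0.0289 CPM after 24 h, against 1.04 and 0.434 CPM after 3 h. Their log2 fold changes were −1.22 (SE 0.49, adjusted p = 0.393) and −3.17 (SE 0.90, adjusted p = 0.386), at levels where few reads are counted. FOXQ1 was highest in 3 h replicate 2, and its log2 fold change was −0.56 without that library. ACKR1, a chemokine receptor of venules and red cells, had a median of 5.33 CPM after 24 h and 8.77 CPM after 3 h, but reached 33.1 and 86.6 CPM in 24 h replicates 1 and 5. Its log2 fold change was 1.502 (SE 0.72, adjusted p = 0.438), and 0.34 without the libraries that stand apart. These 3 of 13 listed markers were the only ones linked. Their summed level ran from 3.23 to 87.0 CPM after 24 h and from 5.54 to 13.0 CPM after 3 h. Most of that sum was ACKR1, while FOXQ1 reached at most 1.21 CPM and MEOX2 at most 0.196 CPM after 24 h. The part of these markers in the vessel results was not tested. CAV1, the coat protein of caveolae, chosen after its values were seen, was higher in mean at 24 h, with 212.7 ± 68.2 CPM against 132.5 ± 64.9 CPM after 3 h (SD, n = 6 each). Its log2 fold change was 0.68 (SE 0.29, adjusted p = 0.404), and 0.37 without the libraries that stand apart.

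MAP1LC3A was the second gene called once the libraries that stand apart were left out. It had 96.4, 111.9 and 151.9 CPM after 24 h, against 148.7, 173.0 and 220.2 CPM after 3 h. The 24 h group overlapped the 3 h group in 1 library, 24 h replicate 5, and room air averaged 182.0 ± 38.1 CPM (SD, n = 6), near the 3 h level. Here the 24 h group is the one away from room air, unlike VEGFC and THBD, for which it is the 3 h group. For MAP1LC3A the log2 fold change was −0.63 (SE 0.14, adjusted p = 0.383), and −0.57 (SE 0.09, adjusted p = 0.0461) without the libraries that stand apart. DESeq2 called MAP1LC3A on all libraries as well (adjusted p = 0.0373).

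Other symbols of low p that were lower at 24 h included AP2S1, the small subunit of the clathrin adaptor of endocytosis, SPA17, a protein of sperm and motile cilia, NREP, a neuronal protein of nerve regeneration, and TSSC4, a splicing factor chaperone. AP2S1 had 50.02, 63.0 and 79.9 CPM after 24 h, against 64.6, 82.6 and 95.7 CPM after 3 h, and 4 of 6 24 h libraries lay below every 3 h library. The log2 fold changes were −0.40 (SE 0.12) for AP2S1, −0.56 (SE 0.16) for SPA17, −0.48 (SE 0.14) for NREP (−0.30 without the libraries that stand apart) and −0.44 (SE 0.14) for TSSC4. None of these 4 passed the test, with adjusted p-values between 0.388 and 0.390. Room-air means were at or above the 3 h level for AP2S1 (89.2 CPM) and SPA17 (8.31 CPM).

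Ranked by p, the genes higher at 24 h with a symbol and 1 CPM or more on average were led by GSAP and ABHD17B. GSAP is the activating protein of gamma-secretase, and ABHD17B is an enzyme that removes palmitate from synaptic proteins. Genes without a symbol that had a lower p in this direction are given below. GSAP had 21.9, 30.6 and 35.7 CPM after 24 h, against 7.43, 18.2 and 24.7 CPM after 3 h. ABHD17B had 97.4, 116.2 and 132.8 CPM after 24 h, against 38.5, 76.5 and 109.2 CPM after 3 h. In both genes the groups overlapped through 24 h replicate 5 alone, and 3 h replicates 5 and 6 were the lowest of their group. For GSAP the log2 fold change was 0.76 (SE 0.21, adjusted p = 0.386), and 0.60 (SE 0.14, adjusted p = 0.257) without the libraries that stand apart. That of ABHD17B was 0.71 (SE 0.21, adjusted p = 0.388), and 0.49 (SE 0.11, adjusted p = 0.257).

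With all libraries the rule named 6 more genes as higher at 24 h, none past the test. PLOD1, the lysyl hydroxylase that modifies collagen, had a log2 fold change of 0.64 (SE 0.21), from medians of 93.6 CPM after 24 h and 56.3 CPM after 3 h. ASB7, a substrate receptor of a ubiquitin ligase, had 0.44 (SE 0.14), BBS10, a chaperonin-like protein of primary cilia, 0.69 (SE 0.23), and NUDT12, a peroxisomal hydrolase of NADH, 0.56 (SE 0.20). IVD, the isovaleryl-CoA dehydrogenase of leucine breakdown, had 0.57 (SE 0.22). NCF4, a subunit of the phagocyte oxidase, had 0.96 (SE 0.36). Adjusted p-values of all 6 were 0.390. Without the libraries that stand apart the log2 fold changes of PLOD1, NUDT12, IVD and NCF4 were 0.38, 0.32, 0.33 and 0.29, smaller in each case by over 1.5 times. Only in that fit did the rule also name EFCAB14 (0.31, SE 0.13, adjusted p = 0.439) and ACER2 (0.42, SE 0.17, adjusted p = 0.430). With all libraries EFCAB14 had 0.61 (SE 0.25, adjusted p = 0.400) and ACER2 0.27 (SE 0.16, adjusted p = 0.505).

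The 2 genes of lowest p in each direction that have no symbol are given by identifier. ENSCHIG00000012760 had 4.37, 6.07 and 8.78 CPM after 24 h, against 1.66, 2.07 and 4.56 CPM after 3 h, and a log2 fold change of 1.28 (SE 0.25, adjusted p = 0.352). It overlapped in 1 library only and passed 0.05 without 3 h replicate 2 (adjusted p = 0.0339). ENSCHIG00000016960 (0.48, SE 0.10), ENSCHIG00000022524 (−0.51, SE 0.11) and ENSCHIG00000021231 (−0.35, SE 0.08) each separated the 24 h from the 3 h group in full, at adjusted p-values of 0.352, 0.376 and 0.376. DESeq2 called all 4.

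Transcripts of ribosomal proteins lay slightly lower at 24 h than at 3 h, with no member past the test. Of 48 listed proteins of the large subunit 8 were linked, and all 8 had a negative log2 fold change, with a median of −0.30 and a range from −0.37 to −0.16. Their summed level ran from 473.5 to 804.0 CPM with a median of 559.4 CPM after 24 h, against 554.8 to 836.4 CPM with a median of 700.1 CPM after 3 h. The groups overlapped, and room air had the highest median at 865.7 CPM. For the small subunit, 5 of 32 were linked, and all 5 had a negative value, with a median of −0.25. Leaving out the libraries that stand apart gave medians of −0.42 and −0.37. RPL11, a large-subunit protein, had 50.2, 63.0 and 79.3 CPM after 24 h, against 64.4, 79.6 and 89.7 CPM after 3 h, and log2 fold changes of −0.30 (SE 0.13, adjusted p = 0.410) and −0.42 (SE 0.11, adjusted p = 0.305) with and without those libraries.

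Nuclear genes of the respiratory chain had the same sign and a smaller size. The 6 linked of 38 subunits of complex I, which takes electrons from NADH, had a median log2 fold change of −0.21, and the 4 linked of 38 subunits of complexes III, IV and V one of −0.18. Summed complex I levels ran from 696.7 to 896.5 CPM after 24 h and from 786.2 to 977.7 CPM after 3 h, with a room-air median of 1073 CPM. The 5 linked of 15 small mitochondrial proteins had a median of −0.27. Among these were ROMO1, a regulator of reactive oxygen species (−0.41, SE 0.19), ATP5IF1, the inhibitor of ATP synthase (−0.36, SE 0.16), and MICOS10, a protein of cristae junctions (−0.27, SE 0.13). None passed the test, with adjusted p-values from 0.408 to 0.448 for these 3. All members of these lists came from the authors' NTS table for 24 h, whose entries shared the 24 h libraries, and 92 of its 110 tested symbols were lower at 24 h than at 3 h here. Over all 232 tested symbols 188 were lower, with a median of −0.28, so the lists lie close to the other symbols.

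COX1, the subunit of complex IV that the mitochondrion itself encodes, was the only mitochondrially encoded gene linked. It had 131.0, 1121 and 1643 CPM after 24 h, against 62.2, 401.3 and 1282 CPM after 3 h. The groups overlapped over most of their range, and the lowest 24 h value was that of replicate 5. The log2 fold change was 0.84 (SE 0.62, adjusted p = 0.585), opposite in sign to the nuclear subunits.

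**Figure D4:**
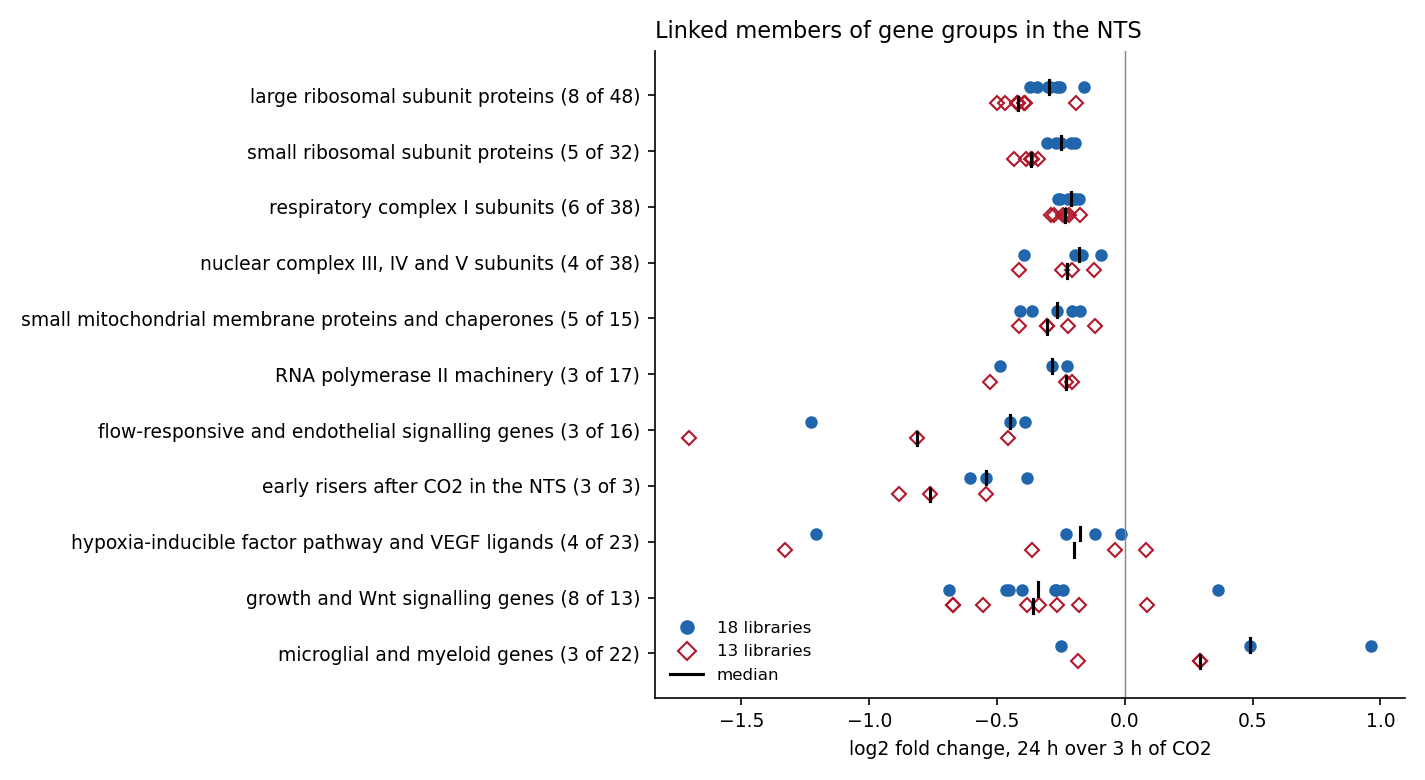
Log2 fold changes, 24 h over 3 h of CO2, of the linked members of 11 gene groups, with the number of members tested and listed in brackets. Blue dots are from all 18 libraries, red diamonds from the 13 without those that stand apart, and black bars are medians; the ribosomal and nuclear respiratory genes lie below 0 in both.

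Genes of neuron subtypes had large fitted differences of wide error. PRPH, GRP, NPFF and SHOX2, the 4 linked of 22 genes of neuropeptides and neuron subtypes, had a median log2 fold change of −4.77, and −0.57 over the 3 tested without the libraries that stand apart. None passed the test. NPFF, the precursor of neuropeptide FF, had a median of 0.480 CPM and a highest value of 1.09 CPM after 24 h, against 0.963 CPM and 93.8 CPM after 3 h, where the highest value was that of replicate 6. SHOX2, a homeobox factor of brainstem neurons, had medians of 0.083 CPM after 24 h and 0.63 CPM after 3 h and reached 27.8 CPM in 3 h replicate 6. The log2 fold changes were −5.14 (SE 1.92) for PRPH, −4.94 (SE 1.79) for NPFF and −4.60 (SE 1.36) for SHOX2, with adjusted p-values of 0.389 to 0.390. Without the libraries that stand apart PRPH had −0.09 (SE 0.29) and NPFF −0.57 (SE 0.56), and SHOX2 was too low to be tested. GRP, gastrin-releasing peptide, had −3.38 with all libraries and −2.83 (SE 1.09, adjusted p = 0.424) without these, and GABRB2, a subunit of the GABA-A receptor, had −1.09 (SE 0.39) with all libraries and −0.41 (SE 0.28) without them. In the libraries kept, GRP had 0.153, 0.484 and 1.905 CPM (lowest, median and highest) after 24 h, against 0.462, 1.355 and 14.67 CPM after 3 h. Most of the 3 h level of GRP in that fit thus lay in 1 library.

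Markers of other cells gave no called difference. The microglial and myeloid genes AIF1, CD14 and NCF4, 3 of 22 listed, summed to 40.1 to 106.0 CPM after 24 h and 53.4 to 90.3 CPM after 3 h. Most of that sum was AIF1, with means of 45.8 CPM after 24 h and 54.8 CPM after 3 h. The 3 genes did not share a sign. AIF1 had a log2 fold change of −0.25 (SE 0.21), while CD14 had 0.49 (SE 0.24) and NCF4 0.96 (SE 0.36). Without the libraries that stand apart CD14 had 0.29. NCF4 reached 18.6 CPM in 24 h replicate 5 and 9.35 CPM in 24 h replicate 1, the same libraries in which ACKR1 was highest, against a highest value of 5.26 CPM after 3 h. OLIG1 and OLIG2, transcription factors of oligodendrocyte lineage cells, were highest in 3 h replicate 2, and their log2 fold changes of −0.36 (SE 0.43) and −0.28 (SE 0.34) became 0.14 and 0.21 without it. OLIG2 had −0.52 without the libraries that stand apart. TTR, the transthyretin that choroid plexus secretes, reached 35.7 CPM after 24 h and 157.4 CPM after 3 h, where the 3 h value was again that of replicate 2, with medians of 1.82 and 6.13 CPM. HBQ1 and HEMGN, the 2 linked of 11 erythroid genes, had log2 fold changes of −0.44 (SE 0.22) and 1.36 (SE 0.54). Without the libraries that stand apart HEMGN had 0.35, and the median of the pair was −0.08, against 0.46 with all libraries. None of these genes passed the test, and their part in the results above was not tested. Of the growth and Wnt signalling list, 8 of 13 were linked, and 7 of the 8 had a negative value with a median of −0.34. This lies close to all tested symbols, of which 188 of 232 were lower with a median of −0.28. AKT1, the kinase downstream of insulin receptors, had −0.69 (SE 0.33, adjusted p = 0.439), and −0.25 without 3 h replicate 2, its highest library. AKT1 ran from 34.5 to 69.9 CPM after 24 h and from 23.4 to 168.9 CPM after 3 h.

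Whether the NTS differed from other sites was tested against the mean of the same difference in the ventral respiratory column (VRC) and the retrotrapezoid nucleus (RTN) of the goats of this batch. No gene passed: edgeR called 0 of 16339 genes (0%), with 1314 (8.04%) at an unadjusted p below 0.05, and DESeq2 called 3. The 24 h against 3 h comparison by edgeR also called 0 of 15424 genes (0%) in the VRC, where 1087 had an unadjusted p below 0.05, and 0 of 15479 (0%) in the RTN, where 1390 did. VEGFC, THBD, HYAL2, TUBB6, NOS3, RHBDF1 and ACVRL1 had negative log2 fold changes at all 3 sites, while CAV1 (0.48 in the VRC and 0.66 in the RTN) and ACKR1 (1.02 and 0.23) had positive ones. The labels do not state whether a replicate number marks the same goat at each site. The test of sites took its 54 libraries as independent, so like signs at 3 sites may not be independent repeats. The authors had also selected THBD, HYAL2 and TUBB6 as higher at 3 h than in room air in the VRC, and THBD in the RTN. THBD averaged 6.18, 5.66 and 5.51 CPM after 24 h in the NTS, VRC and RTN, against 15.1, 14.3 and 10.8 CPM after 3 h. The log2 fold change of VEGFC was −0.73 (SE 0.20) in the VRC and −0.82 (SE 0.25) in the RTN, and the difference of the NTS from their mean was −0.43 (SE 0.26, adjusted p = 0.709). For HYAL2, TUBB6, NOS3 and RHBDF1 the site differences were 0.04, 0.14, 0.05 and −0.01 (SE 0.19, 0.27, 0.26 and 0.17). These signs are not stable: without the libraries that stand apart HYAL2, TUBB6 and NOS3 had −0.19, −0.15 and −0.33.

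GSAP, MAP1LC3A, AP2S1, SPA17, MEOX2 and ENSCHIG00000016960 had a larger difference in the NTS, although none passed the test across all genes. ENSCHIG00000016960 had a site difference of 0.55 (SE 0.13, unadjusted p = 8.68e-05, adjusted p = 0.316). Its log2 fold changes were −0.08 (SE 0.11) in the VRC and −0.06 (SE 0.11) in the RTN. The site differences were −0.39 (SE 0.14, adjusted p = 0.465) for AP2S1 and −3.39 (SE 0.97, adjusted p = 0.416) for MEOX2, which had few reads. The site difference of GSAP was 0.77 (SE 0.19, unadjusted p = 0.000147, adjusted p = 0.316), with log2 fold changes of 0.10 (SE 0.11) in the VRC and −0.10 (SE 0.13) in the RTN. MAP1LC3A had −0.01 (SE 0.11) in the VRC and −0.32 (SE 0.10) in the RTN, and a site difference of −0.47 (SE 0.15, adjusted p = 0.456). SPA17 had a site difference of −0.71 (SE 0.20, adjusted p = 0.416). COX1 had the opposite sign at the other sites, −1.37 (SE 0.44) in the VRC and −0.49 (SE 0.47) in the RTN, and a site difference of 1.76 (SE 0.65, adjusted p = 0.479). Since these genes were named for their NTS values, a larger value in the NTS is partly fixed by the choice.

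**Figure D5:**
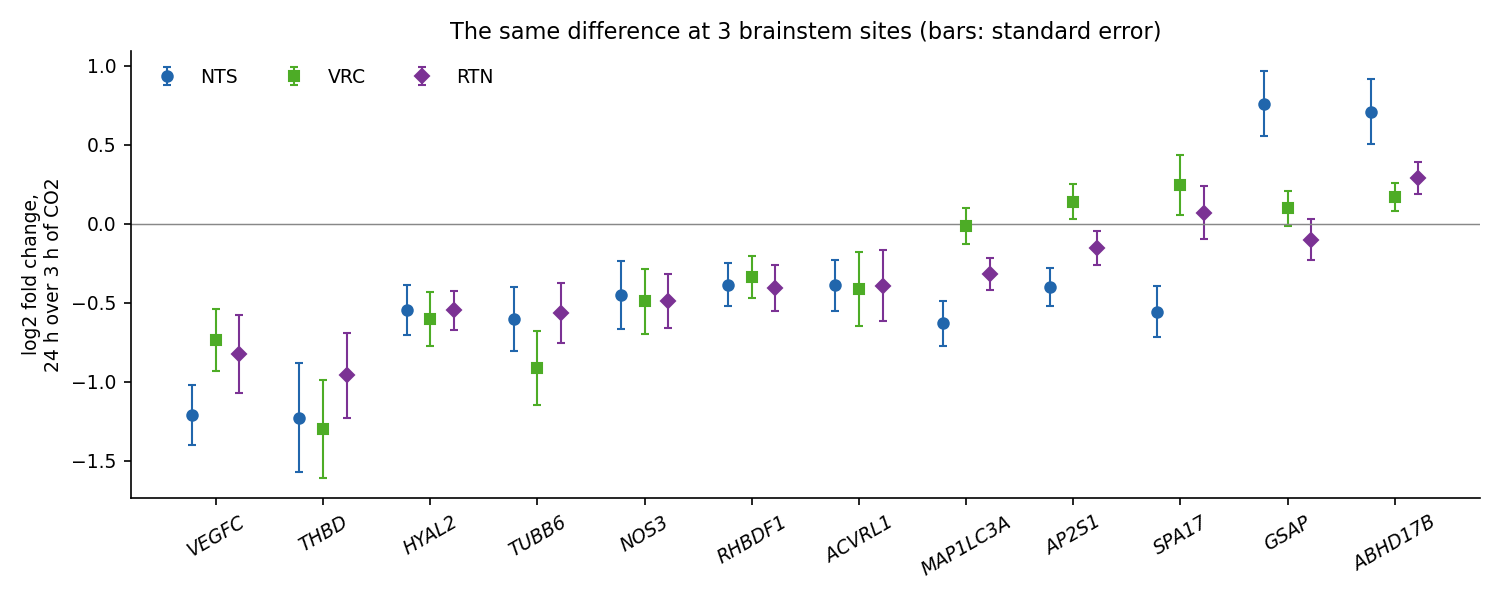
Log2 fold changes, 24 h over 3 h of CO2, with their standard errors for 12 genes in the NTS, VRC and RTN (18 libraries in the fit of each site). The 7 genes on the left, from VEGFC to ACVRL1, lie below 0 at all 3 sites, and GSAP lies at 0.76 in the NTS, 0.10 in the VRC and −0.10 in the RTN. CAV1, not shown, had positive values at all 3 sites.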

How the data were processed

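Bulk RNA of goat brainstem punches was sequenced as 100-bp read pairs from SMART-Seq v4 and Nextera XT libraries. Per the submitters' processing notes, reads passed through fastp (0.24.0), STAR (2.7.10b) and featureCounts (2.0.6), with edgeR (4.6) also listed. Genome build, annotation and strand setting: not given in the sources used here. Raw counts per Ensembl gene make up the deposited count table of 90 libraries, of which 0 columns went unused. Deposited beside it by the authors are tables of CO2 against room air, in which fold change and mean abundance are log2 values, the likelihood ratio is a score, and PValue and FDR are p-values, per the file headers. Symbols were linked by equal mean abundance in a fit over all libraries (17730 genes). Of 342 deposited entries 341 matched 1 gene, and the 93 entries given as identifiers matched themselves.

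The counts went into edgeR 4.0.16 under R 4.3.3 (TMM, filterByExpr on group, glmQLFit with legacy=FALSE and robust=TRUE, quasi-likelihood F test, Benjamini-Hochberg adjustment, threshold 0.05) on the 18 NTS libraries of the first batch. The alternatives used DESeq2 1.42.0, limma 3.58.1 and sva 3.50.0. CPM values carry TMM factors, and fold changes are log2, 24 h over 3 h. Each SE was derived from the F test, as the absolute log2 fold change divided by the square root of F. Confidence intervals were built on these SE values. The procedure was tested on simulated counts with known changes. These were drawn independently for each library and held no libraries that stand apart, so the test does not cover that feature of the data. Among 135 pairs of libraries within groups none agreed within sampling noise (lowest chi-square per degree of freedom 7.5). The rule names, with all libraries and without those that stand apart, the 8 genes of lowest p in each direction with a symbol and 1 CPM or more on average (15 where that many pass), the 2 of lowest p in each direction without a symbol, and of each gene list the 3 of lowest p, or up to 6 that passed. ACVRL1, VEGFA, CAV1, PRPH, and the site values were added after values were seen. The members, the libraries that stand apart, the 29 gene lists and the tests were chosen with earlier results of these data known.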

Additional observations from a re-analysis of the deposited data

Results flagged for a closer look

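For the genes named here, the highest or lowest library of a group was checked for lying far from the rest of its 6 by Dixon's test at the 95% level, which chance alone passes in about 1 in 20 groups. A library was flagged in 21 of 142 groups, 20 at the high end and 1 at the low end, and 8 of the 21 concern libraries that stand apart. All values are TMM CPM.

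After 24 h, replicate 5 was far above its group for ACKR1 (86.6, next 33.1), HBQ1 (16.0), POLR2I (51.7) and POLR2L (66.3), subunits of RNA polymerase II, PRPH (35.8) and SHOX2 (0.822). Replicate 1 was far above for BBS10 (18.2) and CAV1 (344.4) and far below for RHBDF1 (13.97, next 18.01). Replicate 6 was far above for EGLN1 (73.4), NR1D2 (53), a repressor of the circadian clock, and OLIG1 (89.0).

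After 3 h, replicate 2 was far above its group for CCDC85C (16.1), FOXQ1 (3.73), OLIG1 (123.8), OLIG2 (32.7), PPM1D (21.6), a phosphatase induced by p53, TTR (157.4, next 10.1) and VEGFB (41.2). Replicate 6 was far above for NPFF (93.8, next 4.63) and SHOX2 (27.8). Replicate 2 is not one of the libraries that stand apart on the first principal component.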

How the results depend on the processing

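The count of genes past 0.05, 0 with all libraries, was 15 by DESeq2 (8 higher, 7 lower), 1 by voom, and 2 without the libraries that stand apart, in the full fit and with the compared groups alone. It stayed 0 under the other normalization, filters, dispersion, 1 surrogate variable and all 30 NTS libraries, and ran from 0 to 1 with single libraries left out. Without the 5 libraries, 2 genes passed. Alternatives added after seeing the data gave 0 with RLE factors (lowest adjusted p 0.0566), 0 by voom, 0 with the legacy dispersion, 59 by DESeq2 and 0 to 8 with single libraries left out. Leaving out only the 3 such libraries of the compared groups, or only 3 h replicates 5 and 6, also added later, gave 0. The site difference gave 3 by DESeq2 and 0 to 2 with single libraries left out.

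Same-numbered 24 h and 3 h libraries correlated at 0.041 to 0.381 (median 0.117, against −0.018 for other numbers), with 4 of 6 pairs over 0.1 and 3 of 6 libraries best with their own number. Since not every pair was over 0.1, the numbers were not taken as pairs. With the number as a replicate block 48 genes passed (12 higher, 36 lower), 0 with the compared groups alone, and 0 without the libraries that stand apart.

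Of 2398 gene values under alternatives 47 turned sign, and for each the cause was not tested. NR1D2 gave −0.0037 (RLE), −0.0021 (DESeq2), −0.0033 (voom), −0.0012 and −0.0086 (blocks), −0.0475 (surrogate variable) and −0.0211 (3 h replicates 5 and 6 out). VEGFA gave 0.0814 without the 5 libraries, 0.0866 in the compared groups alone without 3, 0.0794 with a surrogate variable, 0.0803 and 0.1541 with 3 or 2 libraries out. PRPH gave 0.4925 with a surrogate variable and 1.39 without both 3 h libraries, ACKR1 −0.2369 and PPM1D 0.0804 by voom. Site differences without the 5 libraries were −0.1862 (HYAL2), −0.3257 (NOS3), 0.445 (PRPH) and −0.1462 (TUBB6).
With single libraries left out the values ran as follows, lowest to highest: VEGFB −0.3506 to 0.067, EGLN1 −0.2361 to 0.0241, NR1D2 −0.1409 to 0.0702, PHLDA3 −0.3486 to 0.0898, PPM1D −0.2875 to 0.2762, OLIG1 −0.7808 to 0.1358, OLIG2 −0.4724 to 0.208, TTR −2.6057 to 0.9286, CD1D −0.0237 to 0.2865, VEGFA −0.0887 to 0.0861, HYAL2 (site difference) −0.0619 to 0.1407, NOS3 (site difference) −0.1493 to 0.2103, THBD (site difference) −0.2876 to 0.1053.

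Medians of lists moved in 16 of 432 values, all in vessel identity, p53, neuropeptide or erythroid genes. The lowest depth, 9.64 M reads in 3 h replicate 3, limits genes of low level most. Confidence intervals are those of the difference between groups, from the fit of all 18 NTS libraries of the batch, and not the spread between goats. No room-air group of 3 h exists, so time effects other than CO2 cannot be told apart.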

Other observations

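Further gene groups showed no called difference between 24 h and 3 h in the NTS. NR1D2, the only linked clock gene of 18 listed, averaged 36.1 CPM after 24 h, with a log2 fold change of 0.00 (95% confidence interval −0.31 to 0.32). The p53 targets ACER2, a ceramidase of the Golgi, PHLDA3, an inhibitor of AKT signalling, and PPM1D had log2 fold changes of 0.27 (SE 0.16), −0.16 (SE 0.29) and −0.08 (SE 0.28). ACER2 and PPM1D had 0.42 and −0.13 without the libraries that stand apart. CD1D, which presents lipid antigens, had 0.13 (SE 0.27), and 0.36 without those libraries. The RNA polymerase II machinery, 3 of 17 genes linked, had a median of −0.29, beside −0.28 over all tested symbols. It had 0 called, with POLR2L at −0.49 (SE 0.20, adjusted p = 0.394). For 8 of the 29 lists no member had a linked symbol, among them immediate early genes, glucocorticoid-responsive genes, heat shock genes and carbonic anhydrases with acid-base transporters, and they were not analysed here.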
